A study of Mus musculus with 8 samples.

Results

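The genes of the cytosolic ribosomal proteins, the proteins that make up the large (60S) and the small (40S) ribosomal subunit outside mitochondria, were followed in mouse CD8+ T cells. Members were taken by symbol: Rpl or Rps with a number, the P stalk genes Rplp0 to Rplp2, and Rpsa, without pseudogenes or ribosomal protein kinases. Of 41730 rows in the deposited table, 83 matched, 51 of the large and 32 of the small subunit. Of these, 75 had 10 or more counts in at least 4 of the 8 libraries and were kept, 47 of the large and 28 of the small subunit. All 75 were among the 12162 genes tested.

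The cells were OT-I CD8+ T cells, which carry a transgenic receptor for the ovalbumin peptide SIINFEKL. They were cultured with SIINFEKL-loaded dendritic cells that had been derived from marrow (BMDCs), and were then purified by flow cytometry. The control group (4 libraries, replicates 1 to 4) received the solvent DMSO, and the treated group (4 libraries, replicates 5 to 8) received 2 µM RGX-104, a small molecule that activates LXR, the nuclear receptors for oxidised cholesterol. All groups share the OT-I genotype and the peptide-pulsed dendritic cells, and DMSO or RGX-104 was present during the culture of both cell types, so an effect on the T cells and one through the dendritic cells cannot be told apart. The labels name neither cultures nor animals for the single libraries, so the p-values measure the spread between these samples only, which may be technical.

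Each ribosome holds a single copy of nearly every ribosomal protein, with the P1 and P2 stalk proteins as the known exception, and a proliferating T cell devotes much of its transcription to them. Their mRNAs begin with a 5′ terminal oligopyrimidine (TOP) tract, a C followed by a stretch of C and T bases (U in the RNA), through which the kinase mTOR and the RNA-binding protein LARP1 control their translation and stability together. T cell activation raises ribosome synthesis, and amino acid shortage restrains TOP mRNAs through mTOR.

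The start sites were searched for short sequences, and their frequencies are set beside those in the windows of all genes. C was the first base in 24.6% of member windows and G in 41.5%, beside 16.3% and 35.6% of all windows. RefSeq promoter windows (GRCm38.p6; 250 bases before to 50 bases after an annotated start) were found for 55 of the 75 members, with 65 windows in all, since some genes have more than 1 start. A C at the start base followed by at least 4 pyrimidines stood in 11 of 65 member windows (16.9%), against 2.51% of 32851 windows of all genes. A run of 8 or more C or T within 30 bases on either side of the start was found in 50.8% of member windows and in 22.9% of all windows. The letters CCGGAAG or their reverse complement CTTCCGG, a core of sites for ETS-family factors, stood in 24 member windows (36.9%) and in 8.86% of all. TATAAA or its reverse complement TTTATA stood in 7.69% of member windows and 13.6% of all. These motifs were searched separately, with overlaps between them allowed. A match is a description of the letters and no evidence of binding, and annotated starts can miss the base where transcription begins.

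The windows below run from 40 bases before the start through the first 20 transcribed bases, 5′ to 3′ on the gene's strand, with the run of C and T that covers the start base in capitals. They are shown for the 3 members whose treated libraries all lay below the control libraries (Rpl35, Rplp2 and Rpl24) and for 3 members whose highest library was treated replicate 8 (Rps27, Rpl15 and Rpl37).
Rpl35 (chr2:39005112-39005171, minus strand): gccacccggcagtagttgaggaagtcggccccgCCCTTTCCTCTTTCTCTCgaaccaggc
Rplp2 (chr7:141447611-141447670, plus strand): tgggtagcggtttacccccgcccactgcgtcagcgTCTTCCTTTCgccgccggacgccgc
Rpl24 (chr16:55966235-55966294, plus strand): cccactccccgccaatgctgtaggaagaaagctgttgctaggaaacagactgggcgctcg
Rps27 (chr3:90213629-90213688, minus strand): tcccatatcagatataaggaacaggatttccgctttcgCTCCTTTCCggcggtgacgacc
Rpl15 (chr14:18270967-18271026, minus strand): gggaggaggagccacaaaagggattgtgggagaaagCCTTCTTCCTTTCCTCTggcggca
Rpl37 (chr15:5116573-5116632, plus strand): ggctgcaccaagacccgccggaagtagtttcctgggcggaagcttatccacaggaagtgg
The run was 18 bases long in Rpl35, 17 in Rpl15, 10 in Rplp2 and 9 in Rps27, while the annotated starts of Rpl24 and Rpl37 are not covered by such a run. Both kinds of start therefore occur among the 3 members that were lower and among the 3 shown of the 30 highest in replicate 8. The windows shown do not stand for all members: a run of 10 or more C or T across the start stood in 16.9% of member windows.

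The 8 libraries held 13144704 to 15966972 counts each. The CD8 chain gene Cd8a was at 266 to 407 CPM (reads per 10⁶, after TMM scaling) in every library, higher in the treated ones, and Cd4 was at no more than 0.134 CPM. Of 7 tested CD8 T cell markers 3 were called higher in RGX-104 (edgeR), beside 0.888% of all genes tested, and the list summed to 1486 to 1529 CPM in control and 1783 to 1835 in treated libraries, with Cd2 listed at 0. Summed over the list, 10 macrophage and monocyte markers were at 42.5 to 50.1 CPM in control and 46.9 to 56.0 in treated libraries. The 13 dendritic cell markers summed to 587 to 655 and 576 to 676 CPM, most of it Ccr7, which T cells also express, and H2-Aa and H2-Ab1 were listed at 0. Of the 9 and 7 tested markers on these lists edgeR called 0, while 3 dendritic cell markers (Batf3, Ccl22 and Fscn1) had an unadjusted p under 0.05. The sum hides differences between dendritic cell markers: 6 of the 9 tested had a negative and 3 a positive log2 fold change. These ran from -1.18 to 0.576, with a median of -0.298, so equal carry-over of dendritic cells in both groups is not shown. In control and treated libraries, neutrophil markers summed to 7.13 to 7.66 and 5.12 to 6.83 CPM, B cell markers to 0.925 to 2.35 and 0.982 to 1.599, markers of CD4 and regulatory T cells to 1.78 to 3.43 and 0.937 to 2.16, and erythroid markers to 89.1 to 93.3 and 78.1 to 97.2. NK cell markers stayed at or under 0.229 CPM.

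Ribosomal protein genes took on average 10.4% (control) and 10.3% (treated) of all reads counted, and the shares of the groups overlapped, as did the balance of the subunits and the CPM of 72 of 75 genes. The SD of that share was 0.0976 percentage points in control and 0.437 in treated libraries (n = 4 per group). No p is given for a sum over members, which were chosen with results known. The large subunit took 5.71% ± 0.0574 and 5.68% ± 0.232, and the small subunit 4.64% ± 0.0468 and 4.62% ± 0.205. The ratio of summed large to small subunit CPM was 1.23 ± 0.00810 in control and 1.23 ± 0.00829 in treated libraries. In single libraries this ratio was 1.24, 1.23, 1.23 and 1.22 in control replicates 1 to 4 and 1.23, 1.24, 1.22 and 1.23 in treated replicates 5 to 8. The groups overlapped, and the ratio was nearly constant even where the summed level was not. In bulk samples, a change in the mixture of cells and a change in RNA per cell cannot be told apart.

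**Figure D1:**
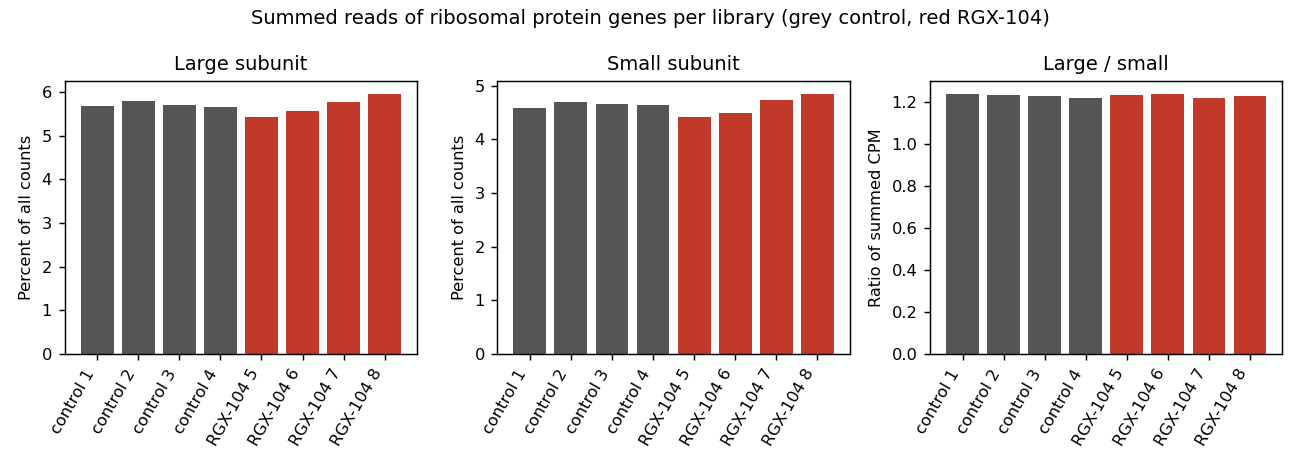
Bars give the percent of all counts taken by large subunit genes (left) and small subunit genes (middle), and the ratio of their summed CPM (right), in each of the 8 libraries, with control in grey and RGX-104 in red. All axes start at 0; treated replicate 5 has the lowest and replicate 8 the highest share of both subunits, while the ratio stays between 1.22 and 1.24.

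With the threshold on the adjusted p at 0.05, RGX-104 libraries had 0 of 75 members higher and 2 lower (edgeR's quasi-likelihood test with Benjamini-Hochberg adjustment over all 12162 genes). Over all genes tested, 0.888% were called higher and 1.78% lower, or 2.66% in either direction, so 2 of 75 (2.67%) is near the background. DESeq2 and limma-voom likewise called 0 members higher and 2 lower, and at an unadjusted p under 0.05 edgeR had 2 higher and 4 lower (8% of members), beside 13.8% of all genes in either direction. Here and below, shares of all genes called are by edgeR only. With slopes over the library number in the fit, 0 members were called higher and 2 lower, beside 1.05% and 1.95% of all genes. The median log2 fold change was -0.01 over the members, -0.0037 over the large and -0.014 over the small subunit, beside 0.0028 over all genes tested. Fold changes ran from -0.23 to 0.22 on the log2 scale, and 32 were positive and 43 negative. The members were also measured precisely: the median SE on the log2 scale was 0.05 over members and 0.15 over all genes tested. The 95% interval lay within ±0.2 on the log2 scale (14.9% up) for 61 of 75 members and within ±0.25 (18.9% up) for 68. The 7 with a wider reach were Rpl35, Rpl24, Rpl19, Rpl15, Rpl36al, Rps27 and Rpl39l.

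**Figure D2:**
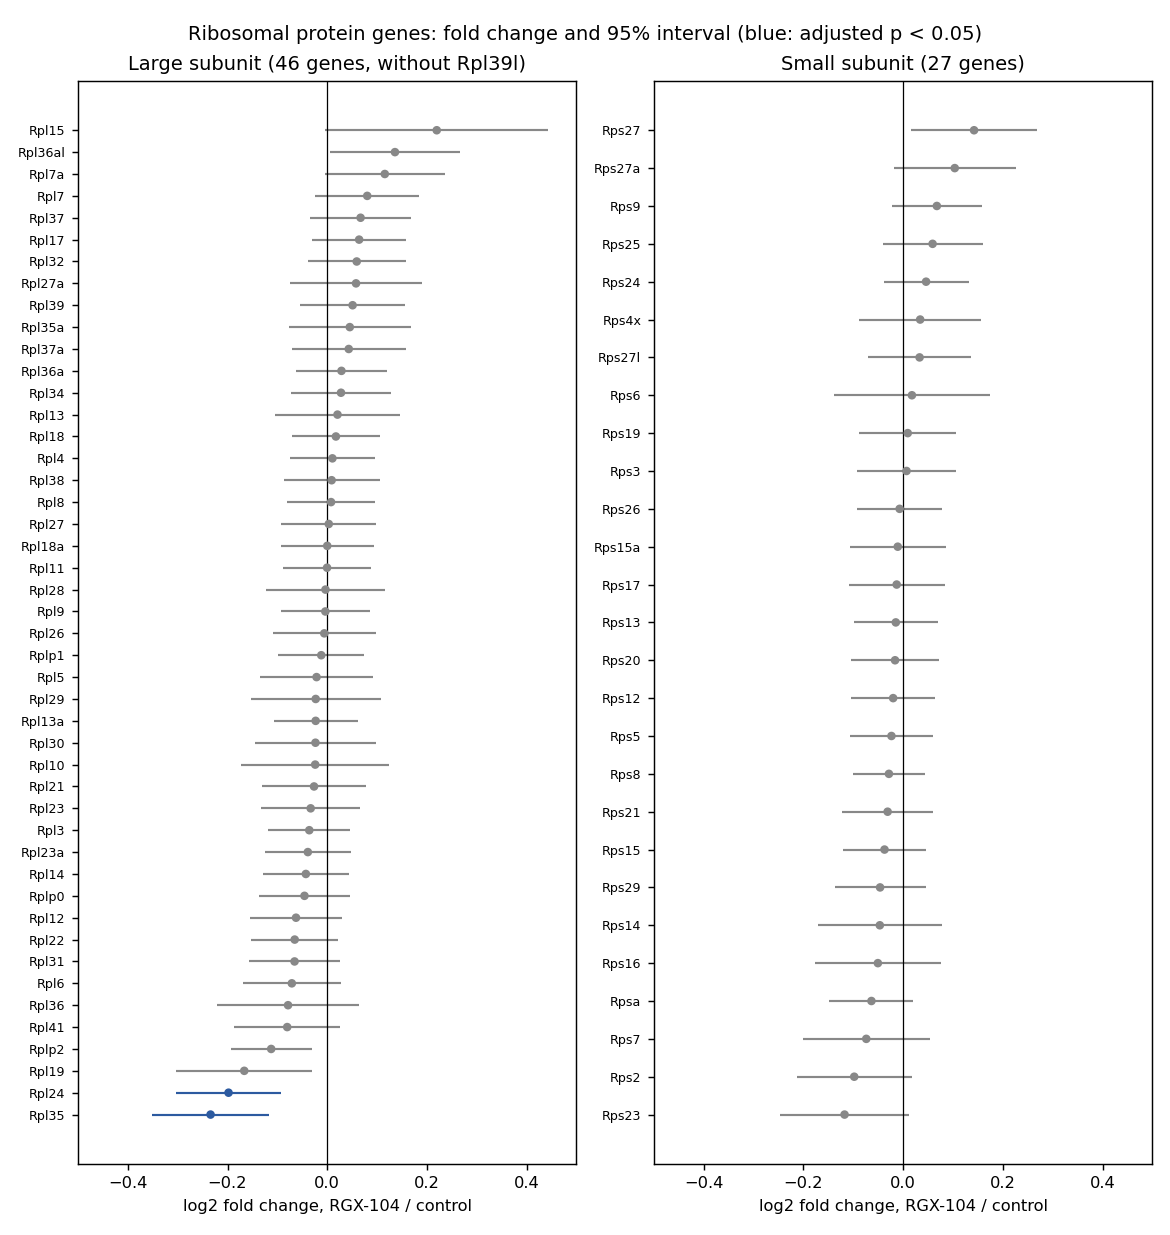
Points give the log2 fold change of RGX-104 over control for each large subunit gene (left, 46 genes, leaving out Rpl39l with few counts) and each small subunit gene (right, the 27 reported here), and lines the 95% interval. Rpl35 and Rpl24, in blue, passed the threshold of 0.05 on the adjusted p; the intervals of most other genes span 0.

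Both called members belong to the large subunit and lay lower by small amounts. Rpl35, which sits near the exit of the peptide tunnel (chromosome 2, 39001581 to 39005131), was at 980, 1166, 1040 and 979 CPM in control replicates 1 to 4 and at 935, 935, 857 and 814 CPM in treated replicates 5 to 8. All treated libraries lay below all control libraries, with replicate 2 the highest and replicate 8 the lowest. It fell by 0.23 ± 0.06 on the log2 scale (± SE; 95% interval -0.35 to -0.12; edgeR adjusted p = 0.0237). Rpl24, a protein at the face that meets the small subunit (chromosome 16, 55966275 to 55971437), was at 428, 492, 464 and 441 CPM in control and 407, 393, 397 and 393 CPM in treated libraries. Again the groups did not overlap, and the treated libraries lay close together. Rpl24 fell by 0.20 ± 0.05 on the log2 scale (interval -0.30 to -0.09; edgeR adjusted p = 0.0331).

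These calls depended on single libraries. Without control replicate 2, Rpl35 had a log2 fold change of -0.18 and Rpl24 of -0.16, and neither was called; neither was called without control replicate 3, treated replicate 7 or treated replicate 8 either. Rpl24 was also not called without treated replicate 6. Over 17 alternative settings the adjusted p of Rpl35 ran from 0.00396 to 0.116 and that of Rpl24 from 0.00339 to 0.126. The reads of both are of uncertain origin, since these libraries read the 3′ end and how reads with several matches were counted is not given in the sources used here. Of the 50-base words in the last 300 bases of their GENCODE M21 transcript, 96.0% for Rpl35 and 81.3% for Rpl24 also stand in transcripts of other genes. This limit is not particular to Rpl35 and Rpl24, and sums over members share it. Over the 75 members the median was 53%, and 21 had no such word. For Rps27 and Rpl10 it was 100%. Exons of Rpl35 overlap those of Wdr38 on the opposite strand over 821 bases, though Wdr38 was listed at 0 in all libraries, and exons of Rpl24 overlap Gm28037 on the same strand over 484 bases.

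Another gene had no overlap between groups without being called. Rplp2, a protein of the stalk that recruits elongation factors (chromosome 7, 141447651 to 141451359), was at 2919, 3217, 2911 and 2953 CPM in control and 2661, 2835, 2789 and 2815 CPM in treated libraries. Its log2 fold change was -0.11 ± 0.04 (edgeR adjusted p = 0.166). So 3 of 75 members (4.00%) had all treated libraries below all control libraries, beside 4.32% of all genes tested, and 0 members had the reverse, beside 3.88%. Of the other stalk proteins, Rplp1 was at 5093 ± 246 and 5051 ± 290 CPM and Rplp0, the base of the stalk, at 1714 ± 62.9 and 1661 ± 94.8 CPM, with log2 fold changes of -0.01 and -0.05.

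Further large subunit genes at the ends of the range were not called. Rpl19, which helps to bridge the subunits, was at 305, 357, 314 and 359 CPM in control and 314, 324, 269 and 283 CPM in treated libraries, a log2 fold change of -0.17 ± 0.07 (edgeR adjusted p = 0.239). Replicates 5 and 6 lay inside the control range and replicates 7 and 8 below it. Rpl15 had the highest estimate, 0.22 ± 0.11 (edgeR adjusted p = 0.371), and of all members but Rpl39l it had the largest control SD relative to the mean. It was at 58.7, 82.9, 79.1 and 99.4 CPM in control and 90.2, 94.6, 87.2 and 101 CPM in treated libraries. Without control replicate 1, the lowest library, its log2 fold change was 0.10, and without control replicate 4, the highest of the group, 0.34. Rpl7a (log2 fold change 0.12) and Rpl36al (0.14) were likewise above 0 with adjusted p of 0.383 and 0.336 by edgeR. Rpl7a was at 0.07 without control replicate 1 or treated replicate 8, and Rpl36al at 0.07 without control replicate 2.

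Among small subunit genes none was called, and the estimates ran from -0.12 for Rps23 to 0.14 for Rps27. Single libraries moved both: Rps23 was at -0.04 without control replicate 2 and -0.18 without control replicate 1, and Rps27 at 0.07 without treated replicate 8. Rps23, a protein of the decoding centre, was at 541, 720, 594 and 640 CPM in control and 561, 590, 566 and 582 CPM in treated libraries. The treated values fell inside the control range, and control replicate 2 stood highest (edgeR adjusted p = 0.417). Rps27 was at 625, 707, 661 and 719 CPM in control and 668, 739, 733 and 851 CPM in treated libraries (edgeR adjusted p = 0.291), with replicate 8 well above all others. Rps6, the substrate of the S6 kinases downstream of mTOR, was at 131 ± 14.6 and 133 ± 9.12 CPM, a log2 fold change of 0.02 with a 95% interval from -0.14 to 0.17. Rpsa, also known as the laminin receptor, was at 1437 ± 28.7 and 1375 ± 57.6 CPM (log2 fold change -0.06).

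**Figure D3:**
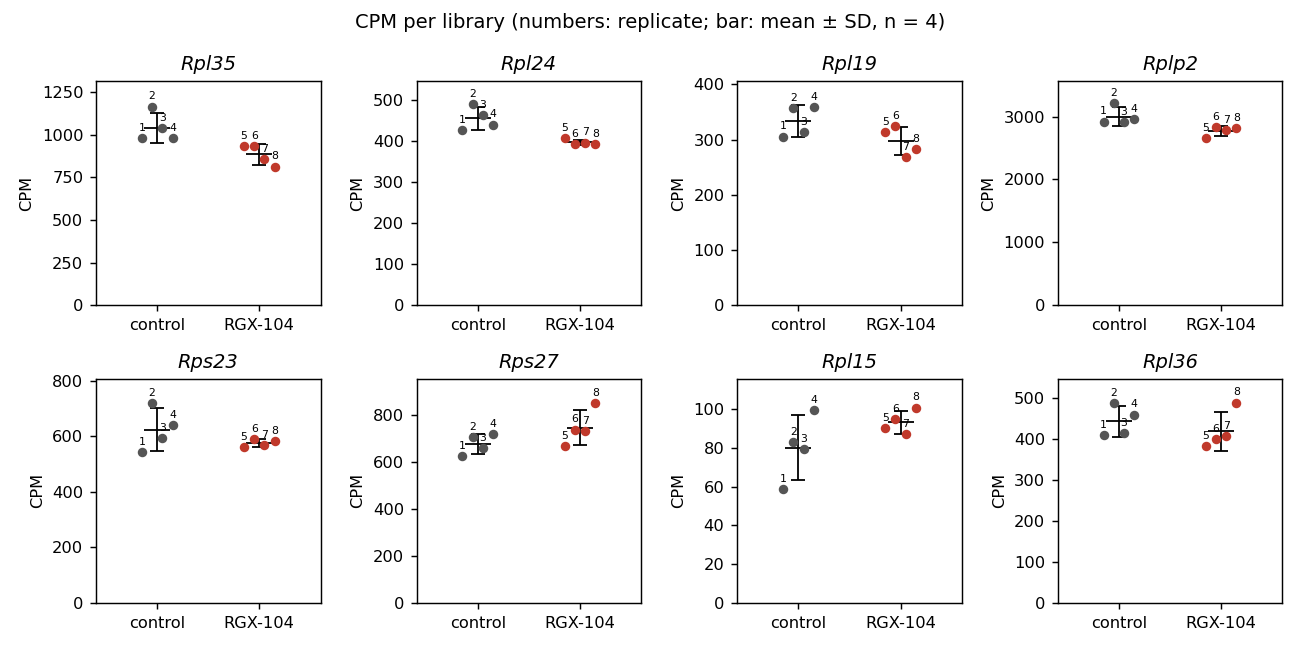
Points give the CPM of 8 members in each library, numbered by replicate, with control in grey and RGX-104 in red; the bar is the mean ± SD (n = 4). For Rpl35, Rpl24 and Rplp2 the groups do not overlap, while replicate 8 is the highest treated library for Rps27, Rpl15 and Rpl36.

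The members that took the most reads did not pass the test. In the small subunit these were Rps26 (3607 ± 126 and 3589 ± 212 CPM in control and treated libraries), Rps12 (3327 ± 48.6 and 3281 ± 211), Rps29 (3203 ± 139 and 3102 ± 201) and Rps20 (3108 ± 174 and 3074 ± 133). In the large subunit they were Rplp1 and Rplp2, given above, Rpl23a (3398 ± 148 and 3308 ± 177) and Rpl37 (2754 ± 137 and 2885 ± 237). The log2 intervals of Rps26, Rps12 and Rps20 all lay between -0.11 and 0.08. Read numbers differ between members for reasons that include where reads start near the transcript end, so levels are not compared between genes.

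Several members have a paralog that makes a variant of the same protein. Rps27l, the paralog of Rps27, was at 298 ± 5.62 and 304 ± 10.9 CPM, with a log2 fold change of 0.03 beside 0.14 for Rps27. Rpl36al, the paralog of Rpl36a, was at 290, 248, 318 and 294 CPM in control and 310, 305, 319 and 330 CPM in treated libraries, and the groups overlapped. Rpl39l, known from testis, was at 2.51 to 5.11 CPM in control and 3.13 to 5.49 CPM in treated libraries, the lowest of the kept members with 38 to 81 counts a library. Those 4 control and 4 treated values overlapped (log2 fold change 0.11 ± 0.30, edgeR adjusted p = 0.915), and the sign was negative without control replicate 4 (-0.05) or treated replicate 8 (-0.03). Rpl3l, a form of muscle, had at most 1 count in a library, and Rpl10l, a form of testis, had 0 counts in all, which allows up to 3 counts or 0.188 to 0.228 CPM.

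The 8 rows that were not kept are of different kinds. Just outside the rule stood Rpl10a with at most 4 counts and Rpl32l with at most 3 in a library. Rps10, Rps18, Rps28 and Rps4l were listed at 0 in all libraries. The symbols of Rpl10a, Rps10, Rps18, Rps28 and Rps4l are repeated in the table with a number appended, in 9 rows that hold 0 counts in all. For Rps10, Rps18, Rps28 and Rpl10a, core ribosomal proteins that every cell uses, these values are not taken to show that a gene is silent. The 11 rows of named pseudogenes held 6065 counts, 0.0497% of the 12199710 counts of the kept members. Only rows named as pseudogenes were counted, so this share does not measure reads from copies under other symbols.

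The treated libraries differed among themselves more than the groups did. The members' share of counts was 10.3, 10.5, 10.4 and 10.3% in control replicates 1 to 4, and 9.84, 10.04, 10.5 and 10.8% in treated replicates 5 to 8, with a 95% Wilson interval of at most ± 0.0168 percentage points that covers counting error only. Treated replicates 5 and 6 thus lay below, and 8 above, every control library. Replicate 7 (10.51%) lay barely above control replicate 2 (10.48%), and below it in the share of the large subunit (5.77 against 5.789%). The median member stood at -0.06, -0.05, 0.01 and 0.07 relative to the control mean (log2 CPM ratio) in replicates 5 to 8, and at -0.02, 0.04, -0.00092 and -0.01 in control replicates 1 to 4. Replicate 8 held the highest value of all 8 libraries for 30 of the 75 members (40%), against 17.2% of 2029 other genes with a mean of at least 100 CPM. Replicates 5 and 6 each held the lowest value for 18 members (24.0%), against 8.62% and 12.6% of those other genes, and control replicate 1 also held the lowest for 18, against 12.1% of the others. Replicates 5 and 6 held the highest for 0 and 1 members, against 16.3% and 7.84% of the others, and control replicate 2 for 25 (33.3%), against 13.4%.

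**Figure D4:**
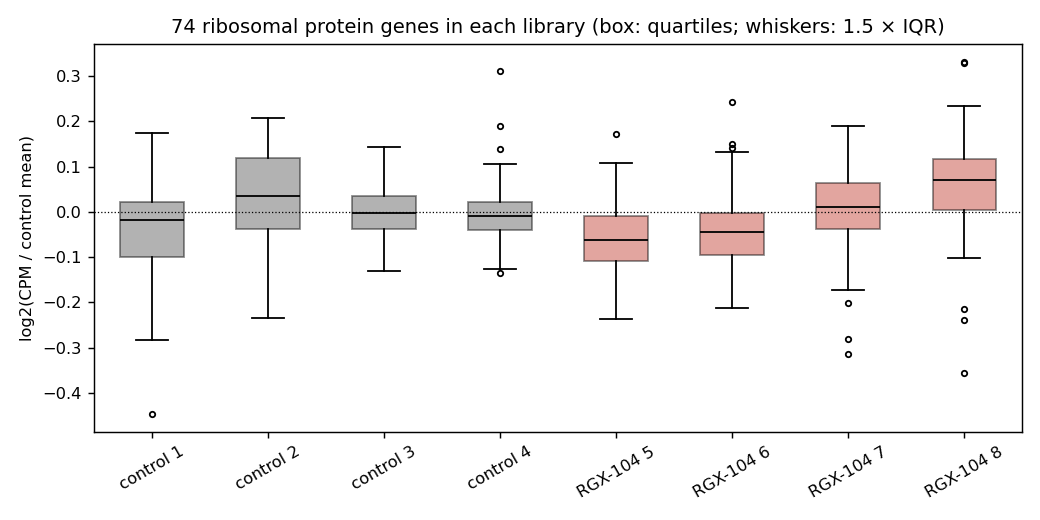
Boxes give the quartiles of log2 CPM relative to the control mean over 74 members (without Rpl39l) in each library, whiskers reach 1.5 times the interquartile range, and the dotted line marks 0. Circles are genes beyond the whiskers. The boxes of treated replicates 5 and 6 lie below 0 and that of replicate 8 above it, while the control boxes and that of replicate 7 lie across 0.

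Large and small subunit genes differed between these libraries alike. The median of the large subunit was -0.06, -0.04, -0.0027 and 0.08, and that of the small subunit -0.07, -0.08, 0.02 and 0.05, in treated replicates 5 to 8. The numbers of the libraries come from their titles, and the labels give them no meaning. A fit with 1 slope per group over these numbers gave a positive slope in the treated group for 70 of 75 members, with a median of 0.0441 on the log2 scale per library number, which was 0.0285 without treated replicate 8. Over all genes tested 50.6% of slopes were positive and the median was 0.0012. In the control group 36 of 75 slopes were positive, with a median of -0.00095. No member's slope passed an adjusted p of 0.05 in either group with edgeR, DESeq2 or limma-voom, where 0% of all genes were called with a positive and 0.0493% with a negative slope in the treated group by edgeR. At an unadjusted p under 0.05, edgeR had 24 positive and 1 negative slope of 75 in the treated group, beside 3.02% and 3.37% of all genes (33.3% of members and 6.39% of all genes in either direction). In the control group it had 3 positive and 0 negative, beside 2.53% and 2.26% (4% of members and 4.79% of all genes in either direction). For the difference between the slopes of the 2 groups, 0 members passed the adjusted threshold with edgeR, DESeq2 or limma-voom, and 15 positive and 2 negative differences had an unadjusted p under 0.05, beside 2.53% and 2.8% of all genes (22.7% of members and 5.33% of all genes in either direction). Over the adjusted threshold, 0% of all genes were called in the control group or for the difference by edgeR. The members come from the same libraries and move together, so they are not separate observations of this difference.

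Rpl39l, with few counts, had the steepest treated slope (0.14), followed by Rpl36 (0.11), Rps14 (0.11), Rps27 (0.10) and Rpl37 (0.09). Rpl36 was at 410, 488, 415 and 460 CPM in control and 383, 400, 407 and 489 CPM in treated libraries, so that replicates 5 to 7 lay below the control range and replicate 8 just above it. Rps14, a protein of the platform of the small subunit, was at 2771, 2970, 2809 and 2643 CPM in control and 2375, 2510, 3128 and 2820 CPM in treated libraries. Here replicate 7, not 8, stood highest. Rpl37 was at 2638, 2950, 2733 and 2694 CPM in control and 2627, 2743, 3051 and 3118 CPM in treated libraries, with replicates 7 and 8 above every control library. Slopes were negative for 5 members, beside 49.4% of all genes: Rpl35, Rpl19, Rpl10, Rpl24 and Rps2, among them both that were called lower in RGX-104. Rpl35 was the member with a negative slope at an unadjusted p under 0.05 (-0.07 ± 0.03 per library number; edgeR adjusted p = 0.775).

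Other measures differed between the same libraries. Rows whose symbol starts with mt-, with the mitochondrial ribosomal RNAs mt-Rnr1 and mt-Rnr2 included, made up 4.84, 4.52, 4.05 and 3.99% of counts in treated replicates 5 to 8. In control replicates 1 to 4 they made up 4.95, 4.72, 4.66 and 4.59%. The proliferation gene Mki67, chosen after its values were seen, was at 243, 193, 155 and 136 CPM in treated and 223, 231, 246 and 223 CPM in control libraries. Summed dendritic cell and macrophage markers were at 623, 673, 726 and 732 CPM in replicates 5 to 8 and at 678, 700, 680 and 637 CPM in control. Most of the dendritic cell part was Ccr7, which T cells also express, so the sum does not measure other cells alone. The part of these measures in the differences between ribosomal protein genes was not tested.

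Libraries of both groups also differed in another way, most of all in control, in which members stood against each other. From control replicate 1 to 2, Rpl15 was higher by 0.50, Rpl10 by 0.43 and Rps23 by 0.41 on the log2 scale, while Rpl27a was lower by 0.41 and Rpl13 by 0.25 (log2 ratios -0.41 and -0.25). Rpl10, a protein near the peptidyl transferase centre, was at 236, 317, 260 and 291 CPM in control replicates 1 to 4 and at 269, 292, 261 and 264 CPM in treated libraries. Rpl27a was at 886, 667, 837 and 751 CPM in control and 784, 792, 852 and 841 CPM in treated libraries. Replicates 1 and 3 were thus on one side and replicates 2 and 4 on the other for both genes, in opposite directions. Across 74 members the log2 ratio of replicate 2 over 1 and that of 4 over 3, which share no library, had a Spearman rho of 0.679, given as a description since genes are not independent. This pairing matches the split of replicates 1 and 3 from 2 and 4, and no rho is given for other pairings. Of the 74 members 26 were higher and 21 lower in both ratios. The first 2 principal components of the differences within groups held 48.2% and 27.8% of the variance over 74 members. The first was at -0.87, 0.84, -0.29 and 0.32 in control replicates 1 to 4 and at -0.29, 0.21, -0.11 and 0.19 in treated replicates 5 to 8, so that it was below 0 in replicates 1, 3, 5 and 7 and above 0 in the others. The second ran from -0.51 in treated replicate 5 to 0.67 in replicate 8.

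**Figure D5:**
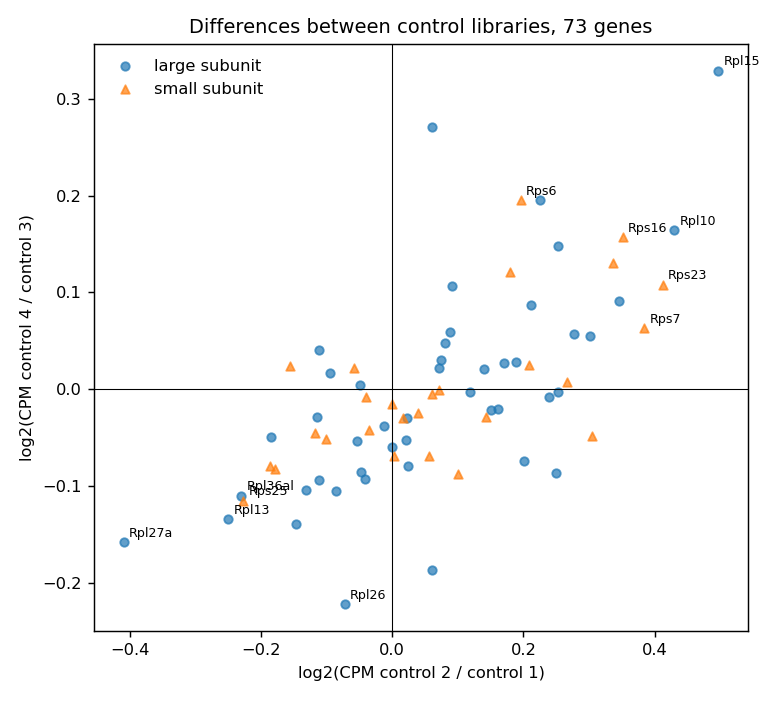
Each point is one of 73 members (without Rpl39l and a gene not reported here), with the log2 CPM ratio of control replicate 2 over 1 on the horizontal and of control replicate 4 over 3 on the vertical axis; circles are large and triangles small subunit genes. Rpl15 and Rpl10 are high in both ratios and Rpl27a and Rpl13 low in both, and both subunits occur on either side.

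Ribosomal proteins whose symbols fall outside the naming pattern had a similar median but a wider range. Fau, which encodes RPS30 fused to a ubiquitin-like protein, was at 851, 939, 884 and 862 CPM in control and 737, 758, 795 and 840 CPM in treated libraries. The groups did not overlap, and the log2 fold change was -0.18 ± 0.05, just missing the threshold (edgeR adjusted p = 0.0527; DESeq2 adjusted p = 0.0112). Rps3a1 was at 433 ± 26.9 and 437 ± 16 CPM (log2 fold change 0.01). Of the 6 genes on that list, none was called by edgeR, 2 had an unadjusted p under 0.05, Fau among them, and the median log2 fold change was -0.01. The log2 fold changes on the list ran from -1.05 to 0.14, beside -0.23 to 0.22 over the 75 members.

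Genes that build ribosomes were called about as often as genes in general. Of 63 genes for ribosome assembly and processing of ribosomal RNA, 1 was higher and 1 lower (median log2 fold change 0.03), beside 0.888% and 1.78% of all genes tested. At an unadjusted p under 0.05 there were 9 of 63, beside 13.8% of all genes. Nop14, a small subunit assembly factor, was at 476, 498, 494 and 473 CPM in control and 441, 392.02, 377 and 413 CPM in treated libraries, with no overlap, and fell by 0.26 ± 0.05 on the log2 scale (edgeR adjusted p = 0.00531). Utp4, of the complex that processes the small subunit's RNA, rose from 263 ± 5.21 to 299 ± 6.71 CPM (0.19 ± 0.05, edgeR adjusted p = 0.0382). DESeq2 called these and also Nop2 (0.16) and Rrp1b (0.15) higher. Of 11 tested genes of RNA polymerase I and its factors, which transcribe ribosomal RNA, 0 were called by edgeR and 1 by DESeq2, Cd3eap (0.20). Of 5 chaperones dedicated to single ribosomal proteins, Heatr3, a partner of RPL5, rose from 79.9 ± 6.95 to 99.5 ± 7.94 CPM (0.32 ± 0.08, edgeR adjusted p = 0.0300), and none fell, beside the same shares of all genes.

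Hosts of small nucleolar RNAs, whose introns give the guides for modification of ribosomal RNA, had the lowest median of these lists. Of 6 such genes 2 were called lower and none higher, beside 1.78% and 0.888% of all genes tested, with a median log2 fold change of -0.19. Estimates were negative for 5 and positive for 1, and ran from -0.28 to 0.43. Snhg5 was at 168, 172, 176 and 178 CPM in control and 137, 154, 144 and 149 CPM in treated libraries, and fell by 0.25 ± 0.06 on the log2 scale (edgeR adjusted p = 0.0217). Snhg1 fell by 0.27 ± 0.07 from 258 ± 28.4 to 214 ± 12.6 CPM (edgeR adjusted p = 0.0344). Gas5, which like them starts with a TOP tract, was at 666 ± 23.9 and 605 ± 32.8 CPM (log2 fold change -0.14, edgeR adjusted p = 0.165). DESeq2 also called Snhg12 lower (-0.28).

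Other TOP mRNAs and the genes that control them were not called. Of 15 mRNAs of translation factors and other TOP genes, edgeR and DESeq2 called none (median log2 fold change 0.00), while Eif3e and Hnrnpa1 had an unadjusted p under 0.05. Eef1a1, the elongation factor that delivers tRNA, was at 2324 ± 71.9 and 2240 ± 54.1 CPM (log2 fold change -0.05, edgeR adjusted p = 0.565). Of 12 tested genes that control TOP mRNAs or ribosomal protein genes, edgeR and DESeq2 called 0, and 0 had an unadjusted p under 0.05 with edgeR. Among them Larp1 was at 812 ± 40.2 and 857 ± 25.5 CPM (edgeR adjusted p = 0.472), and Myc, which drives ribosome synthesis, was at 147 ± 19.0 and 162 ± 5.83 CPM (edgeR adjusted p = 0.410). Rps6kb2, listed at 0, has a repeated symbol and is not read as absent.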

How the data were processed

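Sorted OT-I CD8+ T cells were profiled by 3′ RNA-seq (Lexogen 3′ FWD, total RNA, per the labels' protocols) in 4 control and 4 RGX-104 libraries. The authors deposited 1 table of whole-number read counts per gene symbol. Per the submitters' processing notes, STAR 2.7.8a, R 4.1.0, DESeq2 1.4 and the build GRCm38 were used. Which program counted the reads, with which strand setting and how it treated several matches, is not given in the sources used here. Groups came from the labels, and totals of 13144704 to 15966972 counts set the precision. Wilson intervals and floors cover counting error only.

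Counts were filtered (filterByExpr, minimum 10), scaled by TMM and tested two-sided over 12162 genes with edgeR 4.0.16 (quasi-likelihood, R 4.3.3) and Benjamini-Hochberg adjustment, threshold 0.05. A second fit added 1 slope per group over the library number. CPM are TMM-scaled and not divided by length. The procedure was tested on simulated data with 12028 genes: 36% of changes of 0.5 and 100% of changes of 1 (log2) were recovered between groups, and 18% of treated slopes of 0.25 and 95% of 0.5. Recovery at the precision of the members was not tested. The median SE of the log2 fold change between groups was 0.05 over members and 0.15 over all genes tested. Alternatives were DESeq2 1.42.0, limma-voom 3.58.1, other scalings and filters, and leaving out each library. Members, lists and tests were chosen with earlier results of these data known. Named were called members, the 5 highest and 5 lowest fold changes, the 4 members per subunit with most reads, the 5 steepest treated slopes, members at the edge of the count rule, the stalk genes, Rpsa, Rps6, Rpl10, Rps27 and paralogs, and called genes of each list. Other genes, such as Rpl27a, Rpl13, Mki67, Gas5, Fau, Rps3a1, Larp1, Myc and Eef1a1, were chosen after their values were seen. The values of 2 genes are not reported here, though counts and sums include them. Replicate pairs within a group differed by more than counting noise (chi-square per degree of freedom 6.61 to 10.2 over all genes tested and 22.2 to 130 over members). At a given relative spread this measure grows with the number of reads. The ranges for members, with a median of mean levels of 1170 CPM, and for all genes are therefore not compared. Promoter windows are RefSeq's (GRCm38.p6), and transcript ends GENCODE M21.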

Additional observations from a re-analysis of the deposited data

Results flagged for a closer look

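Groups of 4 libraries were checked for the named members and for the summed levels, share of counts, subunit ratio and median over members. Of 58 such groups, 2 held a library that stood apart from the other 3 by more than Dixon's 95% limit, and chance flags about 1 in 20 groups. Rplp2 was at 3217 CPM in control replicate 2, and the nearest control library was at 2953 CPM. Rpsa was at 1479 CPM in control replicate 2, and the nearest was at 1427 CPM. Both are the highest control value of the gene, in the library that held the highest value of all 8 libraries for 25 of the 75 members (33.3%), against 13.4% of other genes with a mean of at least 100 CPM.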

How the results depend on the processing

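No member was called higher in RGX-104 under any of the 17 alternatives run, and none had a called slope under any of the 16 run for the slopes. The count of members called lower was 2 in every setting with all 8 libraries and ranged from 0 to 2 when 1 library was left out: it was 0 without control replicate 2 or 3 or treated replicate 7 or 8, and 1, Rpl35, without treated replicate 6. The cause was not tested beyond the smaller number of libraries. Log2 fold changes ranged from -0.262 to -0.175 for Rpl35 and from -0.227 to -0.159 for Rpl24. The median over members ranged from -0.034 to 0.0091, so its sign is not settled, and the median treated slope from 0.0285, without treated replicate 8, to 0.0535. The median control slope ranged from -0.0256, without control replicate 1, to 0.0173. DESeq2 called 1 ribosomal protein outside the pattern lower (edgeR 0), 3 assembly genes higher (edgeR 1) and 1 RNA polymerase I gene higher (edgeR 0), and the cause was not tested. The share of all genes called by DESeq2 is not given, so these counts have no background beside them. Of 408 values of 24 named members, 381 kept direction and call, 9 lost the call (Rpl35 and Rpl24), and 18 changed sign, in 8 members that were not called in any setting. These sign changes came when 1 library was left out, with log2 fold changes from -0.0543 to 0.257 for Rpl39l, -0.0372 to 0.0145 for Rplp1, -0.0458 to 0.0232 for Rps26, -0.0496 to 0.00913 for Rps12, -0.0431 to 0.0163 for Rps20, -0.0442 to 0.0877 for Rps6, -0.0925 to 0.0502 for Rpl10 and -0.124 to 0.012 for Rps14. No paired analysis was possible because replicate numbers are not shared between the groups. Depth limits Rpl39l, with 38 to 81 counts a library.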
